A study of Mus musculus with 2 samples.

Results

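The cells described here are cluster 5 of the embryonic day 11.5 (E11.5) mouse mandibular prominence, a group of mesenchymal cells rich in Barx1, Dlx5, Frzb, Cxcl12 and Gsc. They were taken as the cells that carry this cluster number in the authors' deposited metadata, and number 614 of the 7099 cells of the E11.5 library and of the 13417 cells of both libraries. That is 8.65% of the E11.5 library (8.01 to 9.33%) and 10.4% of the 5899 cells in its 11 mesenchyme clusters. The study profiled single cells of mandibular tissue from wild-type CD1 embryos by droplet-based 10x RNA sequencing, with 1 library at E11.5, when the tissue included the tongue bud, and 1 library at E13.5. How many embryos were pooled is not given. Both stages were untreated wild type, so the groups compared are cluster 5 and the other 10 mesenchyme clusters of the same E11.5 library (clusters 0 to 4, 6 to 8, 10 and 16), which the authors named mesenchyme or neural crest. Cluster 17, with 26 cells, carries the same name but leads with glial genes and was kept out.

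The mandibular prominence, a bud of the first pharyngeal arch, grows into the lower jaw and much of the tongue. Its mesenchyme comes largely from the cranial neural crest and gives rise to cartilage, bone, teeth and connective tissue. Homeobox factors divide it into regions: endothelin signals switch on Dlx5 and Dlx6 in the arch, Hand1 and Hand2 mark its distal (midline) end, and Barx1 marks proximal mesenchyme where molar teeth form. Secreted antagonists such as Frzb and Sfrp2 bind WNT ligands, and the chemokine Cxcl12 guides cells that carry its receptor.

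Values are UMI counts (unique transcript counts) summed over the cells of a cluster and scaled to CPM (per 1000000 UMIs of that cluster). Cluster 5 held 3088886 UMIs with a median of 4935 per cell, the 10th of the 11 mesenchyme clusters, and the other mesenchyme held 34211439 UMIs over 5285 cells with a median of 6084. The median mitochondrial share was 4.33% in cluster 5 and 4.35% in the others. The 2 libraries shared 71 cell barcodes, of which 6 lie in cluster 5. Each interval printed is a 95% interval and covers no more than counting error. The clusters were made from the same genes and there is 1 library per stage, so nothing here is a test and no p-value is given. A gene was counted as measured with at least 20 UMIs over both sides. It was called higher or lower when its ratio of CPM was at least 1.5-fold with an interval that excludes 1, which is a rule of size.

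Barx1, a homeobox factor of the proximal first arch and of the molar field, reached its highest level in cluster 5. It stood at 281 CPM in cluster 5, against 215 in cluster 3, 200.1 in cluster 10, 166 in cluster 2, 157 in cluster 7, 137 in cluster 0 and 105 in cluster 6. It was at 12.2 to 21.6 CPM in clusters 1, 4, 8 and 16. The ratio of Barx1 over the pooled other mesenchyme (113 CPM) was 2.50 (2.32 to 2.69). Cxcl12, a chemokine, was also highest here, at 109.8 CPM, against 15.3 to 95.3 CPM in the 10 other clusters with a median of 63.6, a ratio of 1.78 (1.58 to 1.99). The next clusters for Cxcl12 were cluster 0 at 95.3 CPM and cluster 6 at 91.5 CPM, both close to cluster 5.

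The other 3 markers were shared with neighbouring clusters. Gsc, a homeobox factor needed for middle ear and jaw elements, was at 255 CPM in cluster 5, against 24.4 to 302 CPM in the other clusters (median 141), a ratio of 1.60 (1.48 to 1.73). Clusters 10 and 0 lay above it. Frzb, a secreted WNT antagonist, was at 120.1 CPM, against 17.1 to 196 CPM in the others (median 70.3), a ratio of 1.50 (1.34 to 1.67), with clusters 10 and 2 above it. Dlx5, a homeobox factor of the mandibular arch, was at 225 CPM, against 61.7 to 264 CPM in the others (median 175), and its ratio of 1.48 (1.37 to 1.60) missed the 1.5-fold rule. Of the 5 markers, 4 were called higher and 0 lower. Over all 12655 measured genes, 226 (1.79%) were called higher and 788 (6.23%) lower, and since the markers were chosen for this cluster their count is a description only.

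**Figure D1:**
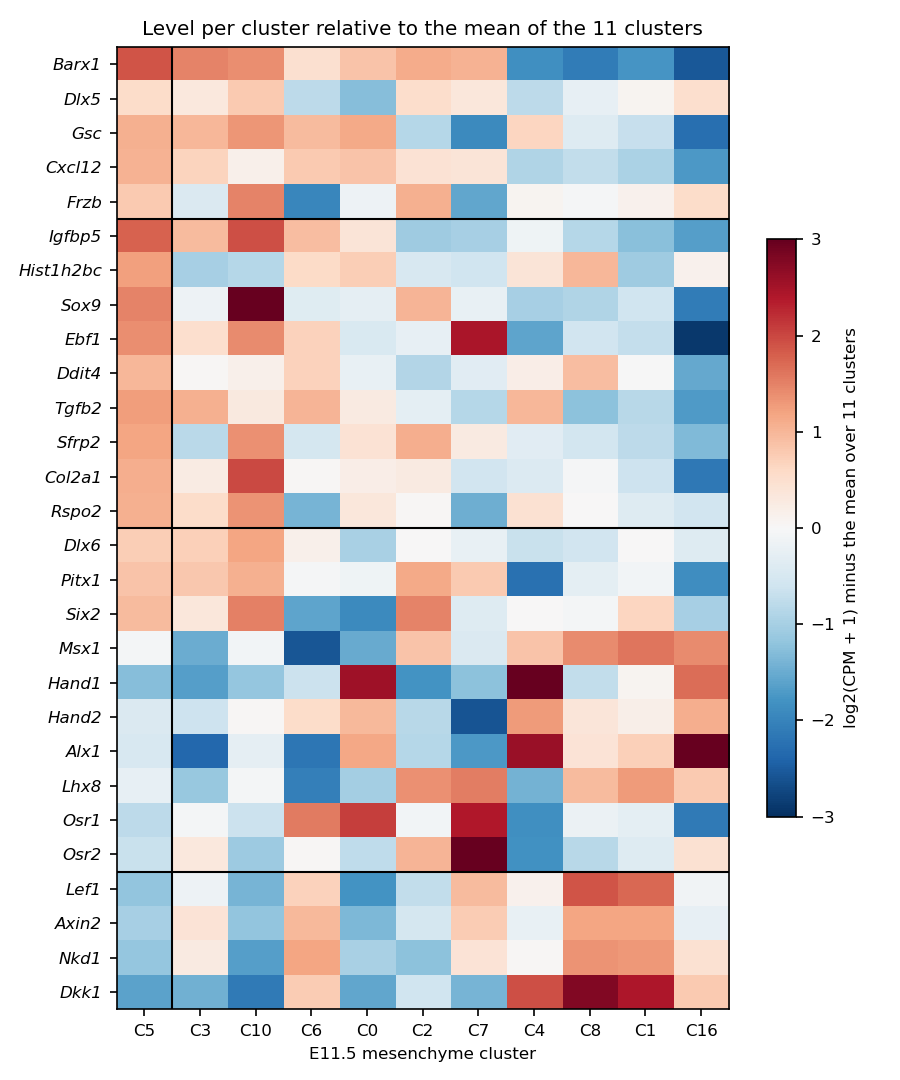
Levels of markers, other high genes, patterning factors and WNT response genes in the 11 E11.5 mesenchyme clusters. Columns are clusters (C5 first), colour is log2(CPM + 1) minus the mean over the 11 clusters, and each gene has its own mean. C5 is red for all 14 genes of the upper panels, of which Sox9 is lower in C5 (60.5 CPM) than in C10 (185 CPM), and blue for Hand1 and Dkk1.

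Of 13 measured general mesenchyme factors 0 were called higher and 3 lower (Twist1, Tcf4 and Zeb2), with a median log2 ratio of −0.37, and among G1 cells 5 of 12 were called lower. Of all measured genes 1.79% were called higher and 6.23% lower, and 4.88% lower among G1 cells. Prrx1, a homeobox factor of limb and craniofacial mesenchyme, was at 445 CPM in cluster 5 and 445 CPM in the others, and at 64.1 CPM in erythroid cells. Pdgfra, a growth factor receptor of neural crest mesenchyme, was at 163 CPM in cluster 5 and 130.1 CPM in the others. Twist1, a mesenchymal bHLH factor, was lower, at 28.2 CPM in cluster 5 and 45.2 CPM in the others.

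In single cells the 5 markers were sparse. After each cell was thinned to 2000 UMIs, a Barx1 UMI was seen in 39.6% of cluster 5 cells (35.7 to 43.6%), 16.6% of other mesenchyme cells and 1.97% of the 456 erythroid cells, which serve as a measure of free RNA. The unthinned shares of Barx1 were 59.1%, 34.5% and 15.1%, at median depths of 4935, 6084 and 13137 UMIs. The thinned shares were 34.9%, 23.8% and 3.51% for Dlx5, 35.2%, 23.5% and 5.26% for Gsc, 20.5%, 13.3% and 0.877% for Frzb, and 19.1%, 10.8% and 2.19% for Cxcl12, in the same order of cells. All 5 shares in cluster 5 lie above those in erythroid cells. At least 3 of the 5 markers were seen in 18.1% of cluster 5 cells (15.1 to 21.4%), 14.9% of cluster 10 cells (10.8 to 19.7%), 8.41% of cluster 3 cells, 3.39% of cluster 6 cells and 4.65% of all other mesenchyme cells. None of the 456 thinned erythroid cells had 3, which allows a share of up to 0.658% (3 counts of 456). Without thinning the order differed, with at least 3 markers in 71.7% of cluster 10 cells and 55.0% of cluster 5 cells. The unthinned shares were 48.6% in cluster 3, 16.2% in cluster 6, 29.4% in all other mesenchyme and 4.17% in erythroid cells (19 cells). No marker was seen in 18.1% of thinned cluster 5 cells and in 3.26% of unthinned ones.

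For Barx1, 100 cells held 50% of its 869 UMIs, and 363 of the 614 cells had at least 1. For Dlx5, 117 cells held 50% of 694 UMIs, and for Gsc 96 cells held 50% of 788. For Frzb, 73 cells held 50% of 371 UMIs, and for Cxcl12 66 cells held 50% of 339. Barx1 and Dlx5 were seen together in 15.3% of thinned cells (12.6 to 18.4%), where the product of their separate shares is 13.8%.

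The promoters of the 14 markers and most raised genes were looked up in the RefSeq table of build GRCm38.p6, where 9 of them matched, and 300 bases around the start of Barx1 and Cxcl12 are shown because these are the genes that were highest of all 11 clusters among the markers. Each run has 250 bases before the start and 50 after, on the plus strand, at chr13:48662786-48663085 for Barx1 and chr6:117168285-117168584 for Cxcl12. Capitals mark a match to the TCF/LEF core CTTTGAT read on the other strand.
Barx1: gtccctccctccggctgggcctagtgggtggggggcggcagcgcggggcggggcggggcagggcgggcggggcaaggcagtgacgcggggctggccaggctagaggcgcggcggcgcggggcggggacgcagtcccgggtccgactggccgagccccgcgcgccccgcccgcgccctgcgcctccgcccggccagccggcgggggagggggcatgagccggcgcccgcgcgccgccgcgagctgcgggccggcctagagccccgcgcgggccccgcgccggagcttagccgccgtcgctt
Cxcl12: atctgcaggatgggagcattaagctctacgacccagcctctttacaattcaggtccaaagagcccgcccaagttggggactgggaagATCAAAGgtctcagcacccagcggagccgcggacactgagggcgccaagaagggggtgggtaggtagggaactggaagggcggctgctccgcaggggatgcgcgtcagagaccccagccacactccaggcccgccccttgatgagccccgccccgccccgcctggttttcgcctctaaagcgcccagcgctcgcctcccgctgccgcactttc

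Of the 9 matched genes, 1 (Cxcl12) held CTTTGAT on either strand, against 3.73% of all promoters in the table. The homeodomain core TAATTA was in 0 of the 9, against 5.29% of all promoters, and the SOX core ACAAAG in 1, Tgfb2, against 18.7%. The TCF/LEF and SOX cores share the letters CAAAG on one strand, and a match is a description of letters and not a binding site. The Barx1 run holds none of the 3 motifs and is rich in G and C.

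Cluster 5 was the mesenchyme cluster with the largest share of cells in G1, the phase before DNA synthesis, by the authors' phase calls. There were 422 G1 cells (68.7%, 64.9 to 72.4%), 80 S cells (13.03%) and 112 G2M cells (18.2%) in cluster 5, against 27.4%, 32.4% and 40.2% in the other mesenchyme. Clusters 6 and 8 were close, with 67.7% (63.4 to 71.7%) and 64.6% (59.6 to 69.3%) of cells in G1, and their intervals overlap that of cluster 5. Cluster 0 followed at 39.9%. Clusters 10 and 3, which share many markers with cluster 5, had 12.3% and 2.18% in G1. Cluster 5 held 22.6% of all G1 cells of the mesenchyme. Depth ran with phase: the 3 G1-rich clusters had the 3 lowest median counts of the 11 clusters (4935, 4374 and 5078 UMIs in clusters 5, 6 and 8), and the part of depth in the phase calls was not tested.

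**Figure D2:**
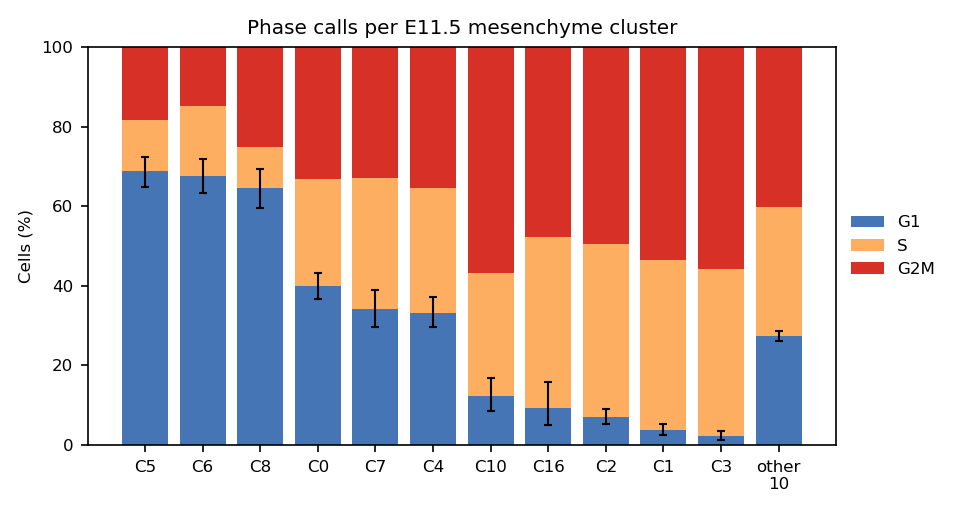
Share of cells in G1, S and G2M (stacked bars, percent of cells) for each E11.5 mesenchyme cluster and for the 10 other clusters pooled. C5 stands first and the others run by their G1 share, with black bars giving the 95% binomial interval of that share. C5, C6 and C8 lie between 64.6 and 68.7% in G1, while C10, C16, C2, C1 and C3 lie at or below 12.3%.

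Many genes of DNA synthesis and mitosis were low in cluster 5, and the phase calls were themselves made from scores of such genes. Of 44 measured S phase genes 19 were called lower and 0 higher, with a median log2 ratio of −0.48, and of 53 G2M genes 37 were lower and 0 higher, with a median of −0.98. Over all measured genes the median was −0.04, and −0.05 in G1 cells, with 1.79% called higher and 6.23% lower over all phases. Top2a, the topoisomerase that untangles DNA in mitosis, was at 65.1 CPM in cluster 5, against 76.7 to 426 CPM in the other clusters (median 314), a ratio of 0.209 (0.181 to 0.240). Rrm2, a subunit of ribonucleotide reductase, was at 291 CPM, against 378 to 808 CPM in the others, a ratio of 0.455. Both were lowest in cluster 5 of all 11. Mcm2, which licenses replication origins, was not lower, at 142 CPM in cluster 5 and 115 CPM in the others. In cells called G1 on both sides the medians were −0.10 for S phase genes and 0.02 for G2M genes. In S and G2M cells together they were −0.35 and −0.32, and −0.03 over all measured genes. There 13 of the 44 S phase genes and 16 of the 53 G2M genes were called lower, and 0 and 2 higher. Of all measured genes 3.95% were lower and 1.91% higher there. Top2a had a ratio of 0.212 in S cells and 0.280 in G2M cells, and Rrm2 of 0.402 and 0.887.

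Over all phases, cyclins and inhibitors that act in G1 were called lower or not at all. Of 20 measured genes of this list 0 were called higher and 4 lower, namely Cdkn1a, Cdkn2c, Cdkn2d and Rbl1. Over all measured genes 1.79% were called higher and 6.23% lower. Cdkn1c, an inhibitor of cyclin-dependent kinases, was at 1260 CPM in cluster 5 and 1146 CPM in the others (ratio 1.10), although cluster 0 reached 2706 CPM. Ccnd2, a D-type cyclin, was at 247 CPM in cluster 5 and 176 CPM in the others, a ratio of 1.41 (1.30 to 1.52). Cdkn1a, another inhibitor, was at 1.62 CPM in cluster 5 and 6.14 CPM in the others, whose median was 1.69 CPM and whose highest was 26.3 CPM in cluster 6.

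By the rule for high ratios and abundance 11 genes were named, of which Barx1 and Cxcl12 are markers that chose the cluster. They were Igfbp5, Barx1, Hist1h2bc, Sox9, Ebf1, Ddit4, Tgfb2, Sfrp2, Col2a1, Rspo2 and Cxcl12. Cluster 5 ranked first of the 11 clusters for 5 of them (Barx1, Cxcl12, Hist1h2bc, Ddit4 and Tgfb2), where 6.35% of all measured genes ranked first there. The genes were picked for high ratios over these same clusters, so high ranks are partly built into the choice. Igfbp5, a binding protein of insulin-like growth factors, was at 97.8 CPM in cluster 5, against 8.13 to 109.1 CPM in the others (median 20.1), a ratio of 3.12 (2.73 to 3.54). Cluster 10 alone was above it. Ectoderm cells of the library were at 484 CPM, and the part of ectoderm RNA in the level of cluster 5, whose epithelial markers summed to 29.5 CPM, was not tested. Ebf1, a transcription factor of B cell and mesenchymal fates, was at 96.8 CPM in cluster 5, against 4.07 to 202 CPM in the others, a ratio of 2.12 (1.86 to 2.40), with clusters 7 and 10 above it. Tgfb2, a TGF-beta ligand, was at 117 CPM, against 14.2 to 102 CPM in the others, a ratio of 2.04 (1.82 to 2.28), and no other cluster was higher. Ddit4, a stress-induced inhibitor of mTOR signalling, was at 57.6 CPM in cluster 5 and 28.2 CPM in the others, and Hist1h2bc, a histone H2B gene, at 42.4 and 17.7 CPM. Both of the last genes were also high in cluster 8 (54.9 and 35.9 CPM). Their ratios in G1 cells alone, 1.27 and 1.26, were not called. Ddit4 was called higher in S cells, at 3.11 (1.99 to 4.68), and in G2M cells, at 1.88 (1.24 to 2.73). Hist1h2bc was called higher in G2M cells, at 4.11 (2.72 to 6.02), but not in S cells, at 0.911 (0.291 to 2.18). Histone genes have near-identical copies, so their counts are uncertain.

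The 12 lowest genes held cell cycle genes and a few patterning genes. Hist1h2ap, Hist1h1b, Fbxo5, Cdca2, Prc1, Aurkb, Top2a, Nusap1 and Ccnf act in chromatin or division, and 4 of the 12 are in the S or G2M lists. Hist1h2ap was at 18.5 CPM in cluster 5, against 31.6 to 358 CPM in the others, a ratio of 0.0721 (0.0546 to 0.0935). Hand1, Dkk1 and Tfap2c made up the rest. Cluster 5 ranked last for 8 of the 12, where 7.86% of all measured genes ranked last there. The 12 were picked for low ratios over these same clusters, so low ranks are partly built into the choice.

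To set phase aside, G1 cells of cluster 5 (422) were compared with G1 cells of the other mesenchyme (1448), most of which come from clusters 0 (373), 6 (339), 8 (255) and 4 (209). Clusters 2, 3 and 10 give only 47, 14 and 33 of them, so the mix of other clusters differs from that over all phases. The part of this difference in the G1 ratios was not tested. Of 10739 measured genes 128 (1.19%) were called higher and 524 (4.88%) lower. All 5 markers were called higher among G1 cells: Barx1 with a ratio of 2.94 (2.63 to 3.30), Dlx5 with 2.10 (1.86 to 2.35), Frzb with 2.04 (1.73 to 2.41), Gsc with 1.61 (1.46 to 1.78) and Cxcl12 with 1.53 (1.31 to 1.79). Of the 11 named high genes 9 were called higher in G1 cells, and of the 12 named low genes 5 were called lower. Among the calls over all phases, 60 of 226 higher and 316 of 788 lower genes had the same call in G1 cells. The same comparison among S and G2M cells called 233 genes higher (1.91%) and 482 lower (3.95%). There Barx1 was 2.44-fold higher (2.16 to 2.75), while Dlx5 and Gsc were not called.

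By phase, Barx1 stood at 279 CPM in G1, 309 CPM in S and 272 CPM in G2M cells of cluster 5, against 94.7, 123 and 114 CPM in other mesenchyme cells of the same phase. Gsc stood at 280.1, 253 and 171 CPM in cluster 5, against 174, 145 and 163 CPM in the others, so its G2M cells did not differ beyond the counting interval (ratio 1.05, 0.858 to 1.28). Dlx5 stood at 227, 251 and 199 CPM in cluster 5, against 108, 156 and 168 CPM in the others. The excess of Barx1 was thus present in every phase, and that of Gsc and Dlx5 in G1 and S.

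**Figure D3:**
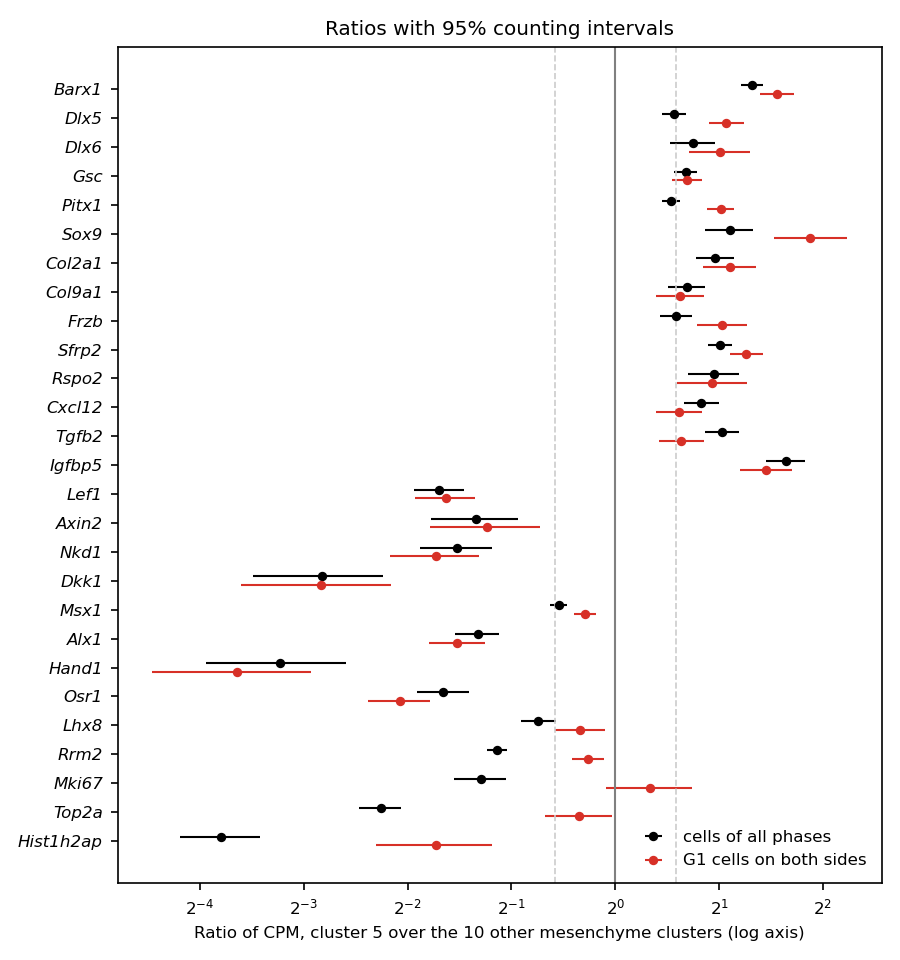
Ratio of CPM, cluster 5 over the 10 other mesenchyme clusters (log axis, base 2), for named genes in cells of all phases (black) and in G1 cells on both sides (red). Points are ratios, bars are 95% counting intervals, the solid line is 1 and dashed lines mark 1.5-fold in each direction. Top2a moves to 0.784 in G1 cells, while Hand1, Dkk1 and Lef1 stay below the lower dashed line in both.

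Genes of early cartilage had the highest median of the lists apart from the markers. Of 12 measured chondrogenesis genes (18 in the list) 6 were called higher (Sox9, Sox6, Col2a1, Col9a1, Matn4 and Wwp2) and 1 lower (Trps1). The median log2 ratio was 0.63, and 0.97 in G1 cells. Among S and G2M cells it was 0.32, with 2 of 12 genes called higher and 1 lower. Sox9, the transcription factor that starts the cartilage programme, was at 60.5 CPM in cluster 5, against 4.07 to 185 CPM in the others (median 16.5). The ratio of Sox9 was 2.15 (1.83 to 2.51) in all cells and 3.68 (2.88 to 4.70) in G1 cells. It was 2.11 (1.30 to 3.26) in S cells and 1.15 (0.730 to 1.73) in G2M cells, the last not called. Over all phases cluster 10 alone was above cluster 5, and it gives only 33 of the 1448 other G1 cells. Col2a1, the chain of cartilage collagen, was at 95.2 CPM in cluster 5, against 9.15 to 175 CPM in the others (median 43.7), a ratio of 1.95 (1.72 to 2.21). Col9a1, a chain of collagen IX, was at 94.2 CPM in cluster 5, with clusters 10 (159 CPM) and 0 (149 CPM) above it. Acan, which marks mature cartilage matrix, was at 0 in cluster 5, which allows up to 0.971 CPM, and at 0 to 0.710 CPM in the others.

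Sox9 was sparse in single cells. A Sox9 UMI was seen in 66 thinned cluster 5 cells (10.7%, 8.41 to 13.5%), against 4.54% of other mesenchyme cells and 0.658% of erythroid cells. Before thinning 114 cluster 5 cells (18.6%) had one, so cells without a thinned Sox9 UMI include some that had one at full depth. Matn4 (matrilin 4) had 26 UMIs in 17 cells and Mia, a cartilage-secreted protein, 39 UMIs in 18 cells. Only 4 cells held 50% of the Matn4 UMIs and 5 cells 50% of the Mia UMIs. In the 66 cells with a Sox9 UMI, Col2a1 was at 233 CPM, against 79.6 CPM in the other 548 cells, a ratio of 2.93 (2.22 to 3.83). Mia was at 70.3 and 6.12 CPM in the same cells (ratio 11.5, 5.82 to 23.0) and Matn4 at 51.1 and 3.60 CPM (14.2, 6.05 to 35.0). Sfrp2 was 2.01-fold higher there (1.66 to 2.42), Igfbp5 2.02-fold (1.48 to 2.71) and Frzb 1.51-fold (1.11 to 2.02). The intervals of Barx1, Dlx5, Gsc and Cxcl12 in this split include 1. G1 shares (74.2% and 68.1%) and median depths (4637.5 and 4956.5 UMIs) of the 2 sets of cells were close. The split was made after the values were seen.

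Of 11 measured osteogenesis genes 0 were called higher and 3 lower (Sp7, Dlx3 and Twist1), where 1.79% and 6.23% of all measured genes were. With so low a share of higher calls, the count of 0 says little about these genes. Dlx3, at 1.62 CPM in cluster 5, was above the median of the other clusters (1.32 CPM). Runx2, the factor that starts bone formation, was at 21.4 CPM in cluster 5 and 21.4 CPM in the others, with 6 clusters above cluster 5.

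WNT modulators were called in both directions, antagonists and agonists alike. Among 15 measured secreted inhibitors and agonists and their like, 3 were called higher (Frzb, Sfrp2 and Rspo2) and 8 lower (Dkk1, Dkk2, Dkk3, Wif1, Nkd1, Notum, Rspo1 and Rspo3). The shares over all measured genes were 1.79% and 6.23%. Sfrp2, a secreted frizzled-related protein, was at 247 CPM in cluster 5, against 42.7 to 281 CPM in the others (median 80.2), a ratio of 2.01 (1.86 to 2.18), and 33 cells held 50% of its UMIs. Rspo2, an agonist that keeps WNT receptors on the surface, was at 52.4 CPM in cluster 5, against 8.35 to 64.3 CPM in the others, a ratio of 1.93 (1.62 to 2.28). For both, cluster 10 alone was higher. Dkk1, an antagonist of WNT co-receptors, was at 7.45 CPM in cluster 5, against 4.91 to 176 CPM in the others (median 29.4), a ratio of 0.141 (0.0892 to 0.212).

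WNT response genes were low. Of 10 measured targets and effectors 5 were called lower (Lef1, Tcf7, Axin2, Sp5 and Lgr5) and 0 higher. Lef1, a transcription factor of the WNT response, was at 47.6 CPM in cluster 5, against 30.7 to 406 CPM in the others (median 110.7), a ratio of 0.309 (0.261 to 0.364). Axin2, a direct WNT target, was at 16.5 CPM, against 12.6 to 78.2 CPM in the others, a ratio of 0.395 (0.293 to 0.523). Nkd1, a feedback inhibitor, was at 23.6 CPM, against 16.4 to 137 CPM in the others. In G1 cells the ratios of Lef1 (0.323), Axin2 (0.424) and Nkd1 (0.301) were still called lower, although the median of the targets list moved to 0.02 there. Clusters 0 and 10 were also low (30.7 and 40.9 CPM of Lef1), and clusters 1 and 8 were the highest for all 3 genes.

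Distal jaw regulators were mostly low. Of 13 measured distal regulators 8 were called lower (among them Hand1, Hand2, Alx1, Tbx2, Foxf1 and Foxf2) and 0 higher. The median log2 ratio was −0.77, and −0.63 in G1 cells. Foxf1 (33.7 CPM) and Foxf2 (9.39 CPM) were nonetheless above the medians of the other clusters, 13.2 and 7.26 CPM. Their highest levels were 171 CPM in cluster 0 for Foxf1 and 66.1 CPM in cluster 16 for Foxf2. Hand1, a bHLH factor of the distal midline, was at 6.47 CPM in cluster 5, against 320 CPM in cluster 4, 104 CPM in cluster 0, 56.9 CPM in cluster 16 and 4.23 to 18.2 CPM in the other 7. Its ratio of 0.107 (0.0652 to 0.166) thus rests on 3 clusters. Alx1, a homeobox factor of frontonasal and distal mesenchyme, was at 61.5 CPM in cluster 5, against 15.8 to 692 CPM in the others (median 91.7). Its ratio over the pool was 0.399, but it was 3.90-fold higher than in cluster 3. Msx1, which acts in jaw and tooth mesenchyme, was at 443 CPM in cluster 5 and 646 CPM in the others, in the middle of a range from 76.5 to 1390 CPM.

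Among 7 measured DLX genes Dlx6 was called higher and Dlx3 and Dlx4, which are scarce here, lower than the pool. Of all measured genes 1.79% were called higher and 6.23% lower. Dlx3 (1.62 CPM) and Dlx4 (2.91 CPM) were nonetheless above the medians of the other clusters, 1.32 and 1.18 CPM. Cluster 3 was highest for both, at 18.7 and 27.3 CPM. Dlx6, the neighbour of Dlx5 on chromosome 6, was at 65.7 CPM in cluster 5, against 19.3 to 90.0 CPM in the others (median 36.2), a ratio of 1.68 (1.44 to 1.95), and 2.01 in G1 cells. Dlx6os1, an antisense transcript of that locus, was at 29.8 CPM in cluster 5 and 29.5 CPM in the others. Strand use in the counting is not stated, and the part of shared reads of the pair was not tested. Dlx1 and Dlx2, which act more widely in the arch, were not called (ratios 1.08 and 1.29). Pitx1, a homeobox factor of the mandibular arch, was at 364 CPM in cluster 5 and 250.4 CPM in the others, a ratio of 1.45 that was not called. In G1 cells Pitx1 was at 360 CPM in cluster 5 and 178 CPM in the others, a ratio of 2.02 (1.84 to 2.22). The level in cluster 5 was thus similar, and that of the other cells was lower. In the endothelin list of 12 measured genes Gsc and Dlx6 were higher and Plcb1 and Hand2 lower. The receptor Ednra was at 30.1 CPM in cluster 5 and 38.6 CPM in the others.

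Oral and dental regulators were mixed. Of 19 measured genes 2 were higher (Barx1 and Six2) and 8 lower (Lhx8, Osr1, Osr2, Shox2, Tbx18, Foxd1, Foxd2 and Meis2). The shares over all measured genes were 1.79% and 6.23%. Shox2, at 11.7 CPM in cluster 5, was nonetheless above the median of the other clusters (9.17 CPM), with cluster 7 at 192 CPM. Six2, a homeobox factor of skull base and jaw mesenchyme, was at 46.3 CPM in cluster 5 and 30.8 CPM in the others, a ratio of 1.50 (1.25 to 1.79), and 2.92 in G1 cells. Osr1, a zinc finger factor of tongue and jaw mesenchyme, was at 44.7 CPM in cluster 5, against 17.3 to 414 CPM in the others (median 70.9), a ratio of 0.317 (0.266 to 0.376). Osr2, its relative, was at 17.2 CPM in cluster 5 and 372 CPM in cluster 7. Lhx8, a LIM factor of tooth-forming mesenchyme, was at 98.1 CPM in cluster 5 and 164 CPM in the others, and was not called in G1 cells.

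**Figure D4:**
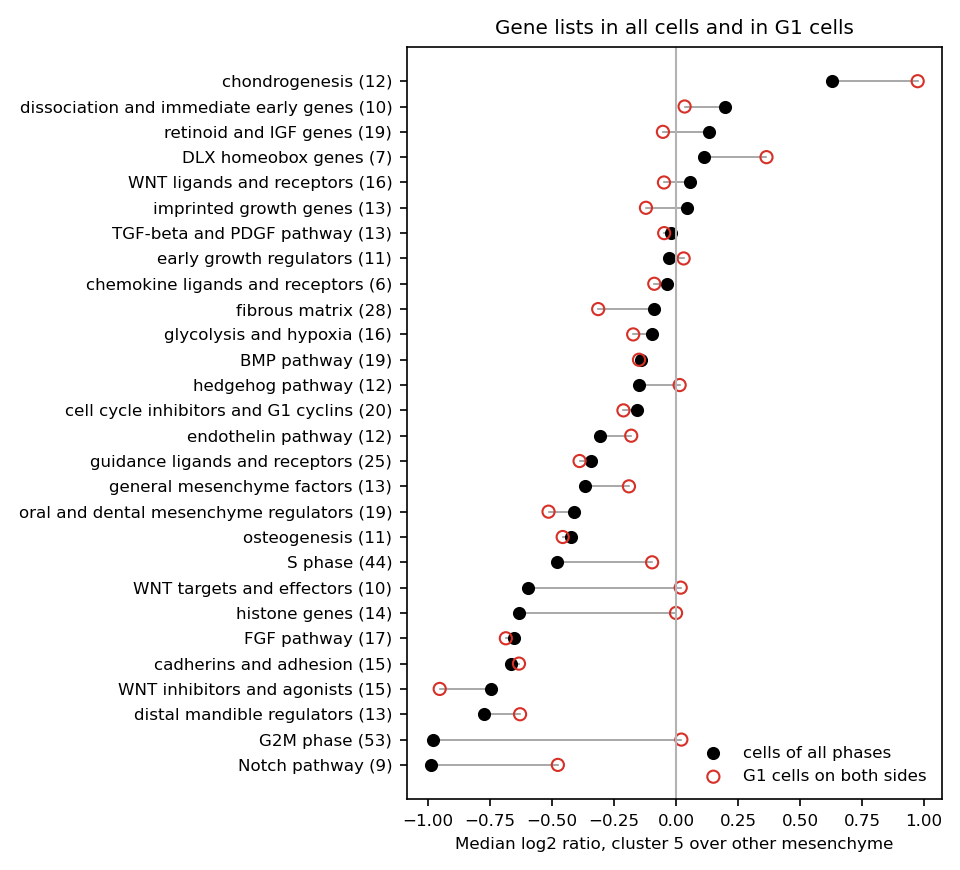
Median log2 ratio of the gene lists with at least 5 measured genes, without cell type markers, cluster 5 over the other mesenchyme, in cells of all phases (filled) and in G1 cells on both sides (open). The number of measured genes is in brackets and the grey line is 0. S phase, G2M, histone and WNT target medians move to near 0 in G1 cells, while chondrogenesis moves from 0.63 to 0.97 and the distal list stays at −0.63.

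Other signalling lists held few high genes, where 1.79% of all measured genes were called higher and 6.23% lower. In the BMP list of 19 measured genes 0 were higher and 3 lower (Bmp4, Grem1 and Bambi). Bmp4, a ligand of distal mesenchyme, was at 32.1 CPM in cluster 5, against 10.4 to 207 CPM in the others, a ratio of 0.345 (0.279 to 0.421). In the FGF list of 17 genes 0 were higher and 6 lower (Spry1, Spry2, Etv1, Etv4, Etv5 and Spred1). These include targets of FGF signalling, and Etv4 was at 4.21 CPM in cluster 5, against 2.09 to 63.0 CPM in the others. In the Notch list of 9 genes 4 were lower, and in the hedgehog list of 12 genes 0 were called. In the TGF-beta and PDGF list of 13 genes Tgfb2 and Tgfbi were higher and Tgfbr3 and Fst lower. In the list of 16 WNT ligands and receptors 1 was higher (Fzd8, with 8 UMIs) and 4 lower (Wnt2, Wnt5a, Wnt5b and Ror1).

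Chemokine genes moved in different directions. Cxcl12 was highest in cluster 5. Ackr3, its scavenger receptor, was also highest there, at 17.8 CPM against 7.90 to 15.8 CPM in the others, a ratio of 1.56 (1.15 to 2.07). Ackr3 was not called in G1 cells or in S and G2M cells (1.58, 0.923 to 2.54). An Ackr3 UMI was seen in 3.42% of thinned cluster 5 cells and 2.37% of other mesenchyme cells. Erythroid cells, the measure of free RNA, were above both at 7.68%, and the part of free RNA was not tested. Cxcr4, the signalling receptor of Cxcl12, was at 0 in cluster 5, with the same limit of 0.971 CPM. The other clusters, at 0 to 0.486 CPM, were all under that limit too. Cxcl14, a chemokine of oral and facial tissue, was lower, at 88.7 CPM in cluster 5, against 45.6 to 952 CPM in the others (median 187), a ratio of 0.281 (0.248 to 0.317).

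Growth factor, matrix and adhesion genes were mostly level or lower. Of 19 retinoid and IGF genes 2 were higher (Igfbp5 and Cyp26a1) and 5 lower (Aldh1a3, Cyp26b1, Crabp1, Igf1 and Igfbp7). Igf1, a growth factor, was at 40.5 CPM in cluster 5, against 13.97 to 350.3 CPM in the others, a ratio of 0.523 (0.433 to 0.626). Of 28 fibrous matrix genes 1 was higher (Ogn) and 5 lower (Col6a1, Col6a2, Eln, Dcn and Lum). Ogn, a small leucine-rich proteoglycan, was at 21.04 CPM in cluster 5, against 1.47 to 17.3 CPM in the others, a ratio of 3.21 (2.40 to 4.25). Its relative Aspn, in the same stretch of chromosome 13, was at 20.1 CPM in cluster 5 and 5.85 CPM in the others. Ogn and Aspn lie 945 and 881 kb from Barx1 by the GENCODE annotation of GRCm38, within the span of Cenpp on the other strand, and strand use in the counting is not given in the sources used here. Of 15 adhesion genes 6 were lower, among them Cdh11, a mesenchymal cadherin that was lowest in cluster 5 of all 11 clusters (67.0 CPM, against 68.5 to 158 CPM). Of 25 guidance genes 7 were lower and 0 higher. The lists of dissociation response and of glycolysis and hypoxia had 0 calls in 10 and 16 genes. Over all measured genes 1.79% were called higher and 6.23% lower, so few calls would fall in lists of this size.

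Against single clusters the closest likenesses differed by gene group. Over cluster 3, a cycling cluster also rich in Barx1 and Gsc, 349 of 10225 measured genes were higher (3.41%) and 731 lower (7.15%). Of the 5 markers only Frzb was called (2.35-fold higher, 1.98 to 2.78), while Barx1 (1.31), Cxcl12 (1.30), Dlx5 (1.19) and Gsc (1.06) were not. Sfrp2 was 4.04-fold, Sox9 3.27-fold, Msx1 2.73-fold and Pax9 5.6-fold higher than in cluster 3, and Top2a had a ratio of 0.153. Nr2f1 (0.352), an orphan nuclear receptor, and Igf1 (0.401) were lower.

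Over cluster 6, with a G1 share of 67.7%, 282 of 9746 genes were higher (2.89%) and 609 lower (6.25%). Frzb was 7.01-fold (5.07 to 9.93), Barx1 2.67-fold and Dlx5 2.55-fold higher, while Gsc (1.10) and Cxcl12 (1.20) were not called. Msx1 was 5.79-fold and Sox9 3.81-fold higher. Igf1 had a ratio of 0.116 (0.0950 to 0.140), Osr1 of 0.194, Axin2 of 0.245, Cxcl14 of 0.248 and Lef1 of 0.267.

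Over cluster 10, which carries the highest Sox9, Col2a1 and Frzb of the clusters, 221 of 9505 genes were higher (2.33%) and 587 lower (6.18%). Sox9 had a ratio of 0.327 (0.272 to 0.393), Col2a1 of 0.544, Col9a1 of 0.592 and Frzb of 0.614 (0.529 to 0.711), all called lower. Cxcl12 was 1.88-fold (1.51 to 2.36), Tgfb2 1.99-fold and Igfbp3 3.12-fold higher, and Barx1 was 1.41-fold (1.24 to 1.59), which missed the rule. The intervals of Msx1, Alx1, Lhx8, Osr1, Lef1, Axin2 and Igfbp5 against cluster 10 include 1.

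Profiles of log2(CPM + 1) were compared over 6377 genes, with each gene's mean over the clusters removed. Cluster 5 had Pearson correlations of 0.18 with cluster 6, 0.16 with cluster 0 and 0.14 with cluster 10. The correlation was −0.14 with cluster 3 and −0.55 with cluster 1. The clusters share 1 library and differ in depth and phase, and genes are not independent, so these are descriptions of likeness only.

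Markers of other cell types were near the level of the other mesenchyme clusters. The 6 epithelial markers summed to 29.5 CPM in cluster 5, against 16.3 to 34.4 CPM in the other mesenchyme clusters and 1669 CPM in ectoderm. That sum ranked 2 of 11, and Krt18, an epithelial keratin, was called higher, at 11.98 CPM in cluster 5 and 7.19 CPM in the others. The endothelial markers summed to 8.09 CPM, against 7.09 to 22.4 CPM in the other clusters and 1764 CPM in endothelium, with Tek at 0. The muscle markers summed to 13.6 CPM, against 8.13 to 13.8 CPM in the other clusters and 1276 CPM in muscle, with Pax7 at 0, although Myod1 with 9 UMIs was called higher. The glial markers summed to 8.74 CPM, against 2.03 to 13.8 CPM in the other clusters and 1127 CPM in glia, with Foxd3 at 0. The erythroid markers, 11821 CPM, were the lowest of the 11 clusters, which lay within 11885 to 12085 CPM, so these sums were nearly alike in all 11. Neuronal markers summed to 48.9 CPM, against 27.3 to 199 CPM in the other clusters, with Elavl3 at 0. Macrophage markers summed to 4.21 CPM, against 2.93 to 8.13 CPM, with Csf1r, C1qa and Cx3cr1 at 0. Pericyte markers summed to 2.27 CPM, against 1.67 to 21.3 CPM.

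The E13.5 library, which did not enter the E11.5 clustering, held 3905 cells in 11 clusters that the authors named mesenchyme or osteogenic progenitors. No E13.5 cluster was higher than the rest of that mesenchyme for all 5 markers. Barx1 was highest in E13.5 clusters 3 (260 CPM, against 35.3 CPM in the rest, 7.36-fold) and 4 (119.5 CPM, 2.40-fold), where 6.45% and 9.62% of all 13420 measured genes were called higher. Dlx5 and Frzb were highest in cluster 5 of that stage, the osteogenic progenitors, at 171 and 164 CPM, against 6.61 and 5.67 CPM in the rest (25.9-fold and 29.0-fold), where 6.01% of all genes were called higher. Gsc was called higher in cluster 11 alone, at 120.4 CPM against 79.8 CPM in the rest (1.51-fold, 1.33 to 1.71), where 4.73% of genes were. Cxcl12 was called higher in clusters 0 (601 CPM), 21 (596 CPM) and 14 (446 CPM), where 6.94%, 11.8% and 7.91% of genes were. Cluster 21, with 72 cells, was also called higher for Frzb.

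Of the 11 genes named as high in cluster 5 at E11.5, 6 were called higher in E13.5 cluster 0, the largest count of the 11 clusters. They were Ebf1, Ddit4, Tgfb2, Sfrp2, Rspo2 and Cxcl12. The other 5 (Igfbp5, Barx1, Hist1h2bc, Sox9 and Col2a1) were called lower there, where 12% of all genes were. Clusters 12 and 14 had 5 higher and 3 lower each, and 7.16% of all genes were called higher in cluster 12. Igfbp5, Sox9 and Col2a1 were called higher in the E13.5 osteogenic progenitors, Igfbp5, Hist1h2bc and Sox9 in cluster 6 (7% of all genes), and Barx1, Sfrp2 and Rspo2 in cluster 3. Clusters 2 and 10 had 0 of the 11, with 4.92% and 7.64% of all genes called higher. Of the 11, the number called lower was 9 in clusters 4 and 11 (10.5% and 9.96% of all genes), 8 in cluster 2 (11.9%), 7 in cluster 10 (9.49%) and 6 in cluster 5 (11.7%). It was 5 in clusters 3 and 6 (7.8% and 10.1%), 3 in clusters 12 and 14 (8.41% and 8.99%) and 2 in cluster 21 (8.83%). The protease was more concentrated at E13.5, and no level is compared across the stages.

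**Figure D5:**
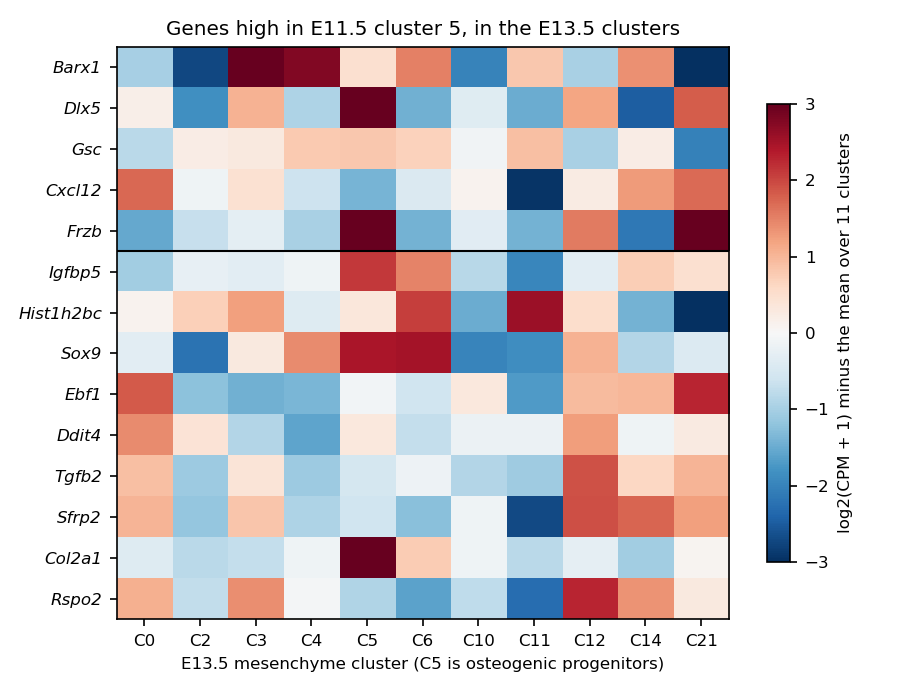
Levels of the 5 markers (above the line) and of the other genes high in E11.5 cluster 5, in the 11 E13.5 mesenchyme clusters. Colour is log2(CPM + 1) minus the mean over these 11 clusters. Barx1 is reddest in C3 and C4, Dlx5, Frzb and Col2a1 in C5 (osteogenic progenitors), and Cxcl12 in C0 and C21, with no single column red throughout.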

How the data were processed

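The authors deposited, per library, a gene by cell table of UMI counts, with metadata that give cluster numbers, lineage names, cell cycle phase, cell cycle scores and the mitochondrial share as a fraction. The submitters' processing notes name Cell Ranger 2.0.0, Seurat 2.3.4 and build mm10. Sources used here do not give the annotation release, the cell filters, doublet removal or the genes behind the phase scores. From the deposited counts, UMIs were summed per cluster and scaled to CPM. Ratios have exact conditional binomial 95% intervals, levels exact Poisson intervals and shares Clopper-Pearson intervals. Shares of cells with a UMI were taken after 2000 UMIs were drawn from each cell, and no E11.5 cell fell below that depth. Erythroid cells (456) gave the background of free RNA. The score values were not used. Some single genes are left out of the text.

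The cluster, its markers and the 38 gene lists were chosen with earlier results of these data known. Beyond list members, genes were named by rank: up to 12 highest and 12 lowest ratios, with at least 50 UMIs over both sides, 30 CPM in the higher side, an interval wholly beyond 1.5-fold and, for high genes, at least 0.2 of the highest level of any cell class. Haemoglobin, mitochondrial, ribosomal, predicted and sex-linked genes were left out of the ranking. A few genes outside these rules (Aspn, Cenpp and Mia) were named after their values were seen, as were clusters 3, 6 and 10 for single comparisons. Doublets were kept. Scrublet (expected rate 0.05) marked 7 cells, 0.0986%, and so did not work, and an alternative dropped the top 5% of scores. The interval code was checked on simulated data. Software was matplotlib 3.10.9, scanpy 1.11.5, pandas 2.3.3, scipy 1.17.1, numpy 2.4.6 and Python 3.11.15.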

Additional observations from a re-analysis of the deposited data

How the results depend on the processing

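The count of genes past 1.5-fold was 1014, and it was 545 at 2-fold and 652 in G1 cells only, where fewer cells and genes enter. Under size factors, no minimum of UMIs, equal weight of the other clusters, thinning, removal of the highest doublet scores and leaving out clusters 10 and 16 it lay between 808 and 1065. The median log2 ratio of the S and G2M genes together was −0.81, and −0.015 in G1 cells only, where both sides are matched for phase by construction. The G1 share of cluster 5 was 68.7%, 70.4% without the highest doublet scores and 66.3% in cells with at least 4000 UMIs. Among single genes and lists, 339 values under alternatives stayed within the interval of the value reported and 36 left it, most of them in G1 cells only. Over the alternatives the ratio of Barx1 ranged from 2.50 to 2.94, Sox9 from 1.81 to 3.68, Gsc from 1.60 to 1.68 and Cxcl12 from 1.53 to 1.92. Dlx5 (1.40 to 2.10) and Frzb (1.48 to 2.04) lay on both sides of 1.5-fold. Size factors moved all log2 ratios by 0.03. Medians of some scarce marker lists could not be computed after thinning or in G1 cells, because a member had no UMI. No paired analysis was possible because each stage has 1 library and the result comes from no test. Depth limits scarce genes, and with 1 library the spread between embryos is unknown.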
